A study of Mus musculus with 12 samples.

Results

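SCC7 cells, a mouse squamous carcinoma line, were compared after culture in medium from tumour-educated macrophages (TAM CM) and in medium from M1 macrophages (M1 CM). The comparison was set by the library titles and holds 6 of the 12 RNA sequencing libraries of the series, 3 for each medium. Bone-marrow-derived macrophages (BMDM) had first been kept for 24 h in DMEM (M0), in 20 ng/ml INF-γ, the labels' spelling of interferon-γ (M1), or in 75% medium conditioned by SCC7 cells (TAM). Fresh SCC7 cells then spent 24 h in the medium taken from those macrophages, and their RNA was sequenced. The M0 CM, M1 CM and TAM CM groups are 1 wild-type cell line, and M0 CM is used here as the reference level. The 3 libraries with medium from macrophages given 20 ng/ml IL-4 (M2) entered only the shared fit and the principal components. The third of them is titled as SCC7 but has melanoma as its cell type label, a conflict the labels do not settle, and leaving it out gave 4772 genes higher and 5040 lower in TAM CM, against 4755 and 4997 with it. The sources used here do not say if INF-γ or SCC7 medium was washed off before macrophages conditioned their medium, so the agent itself and macrophage products cannot be told apart in either group. Nothing in the labels says that the 3 libraries of a medium came from separate macrophage preparations, so the p-values speak of the spread among these libraries alone.

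Interferon-γ binds its receptor on the tumour cell and, through the kinases JAK1 and JAK2, activates STAT transcription factors. STAT dimers bind elements called GAS, while IRF proteins, alone or together with STAT proteins, bind elements called ISRE, and genes with these elements encode antiviral proteins, antigen presentation proteins and T cell attracting chemokines. Cells short of amino acids or burdened with unfolded protein instead raise translation of ATF4, a transcription factor for amino acid transporters, amino acid enzymes and stress hormones such as FGF21 and GDF15. Sterol synthesis genes are driven by SREBP2, which is held inactive when the cell has enough cholesterol.

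The 6 libraries held 18996937 to 22585876 counts, with mitochondrial transcripts at 1.64 to 1.75% of counts. The first principal component (46.6% of the variance over all 12 libraries) set TAM CM apart and the second (33.3%) set M1 CM apart. Correlations between libraries of a medium ran from 0.992 to 0.993. Markers of the labelled squamous carcinoma were mixed. Of the 20 squamous markers, 14 had a count in M1 CM and 13 in TAM CM, and 6 and 7 averaged at least 1 CPM (counts scaled to library size). Krt5 had 0 and 1 counts and Krt14 1 and 1 in the M1 CM and TAM CM groups, and Dsg3, Epcam, Krt15, Krt6a and Perp had none. The summed level of the 20 averaged 199 CPM in M1 CM and 111 in TAM CM (104.8 to 115.1), most of it from Krt8 and Krt18. Itgb4 came next, at 20.3 and 8.53 CPM. The 20 macrophage markers summed to 37.2 to 44.4 CPM in M1 CM and 43.8 to 54.3 in TAM CM, most of it Cd14, with 14 of the 20 having a count in each group and C1qa, C1qb, C1qc, Itgam and Tyrobp at 0 in all 6 libraries. Without Cd14 the mean sum went the other way, 15.2 CPM in M1 CM and 8.09 in TAM CM. Fibroblast markers summed to 1446 to 1544 CPM in M1 CM and 1152 to 1209 in TAM CM, against 2515 to 2662 in M0 CM, led by Col1a2 and Pdgfra, with 9 and 8 of 11 markers having a count in M1 CM and TAM CM and Lum and Thy1 at 0 in all 6 libraries. B cell markers averaged 146 and 54.5 CPM, nearly all Blnk, with Cd79b, Ighm, Igkc and Ms4a1 at 0. Neutrophil markers reached at most 2.65 CPM, nearly all S100a8. The part of these marker levels in the results was not tested. In a bulk library, fewer expressing cells and less RNA per cell cannot be told apart.

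The media separated SCC7 cells across much of the transcriptome. Of 14509 genes tested with edgeR's quasi-likelihood test, 9752 (67.2%) passed at an adjusted p under 0.05, 4755 (32.8%) higher and 4997 (34.4%) lower in TAM CM, and the 3 libraries of each medium did not overlap for 10085 (69.5%). Against M0 CM, whose libraries both comparisons share, 7742 genes (53.4%) passed in M1 CM and 10156 (70.0%) in TAM CM. At least 2-fold differences between TAM CM and M1 CM were fewer, 831 genes (5.73%) higher and 1353 (9.33%) lower. The largest differences lay on the low side: 142 genes were at least 16-fold lower in TAM CM and 57 at least 16-fold higher. The median log2 fold change of all genes tested was -0.02. Because so many genes passed, a list in which about 67.2% of members were called is at the background, and the counts below are read against these shares.

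**Figure D1:**
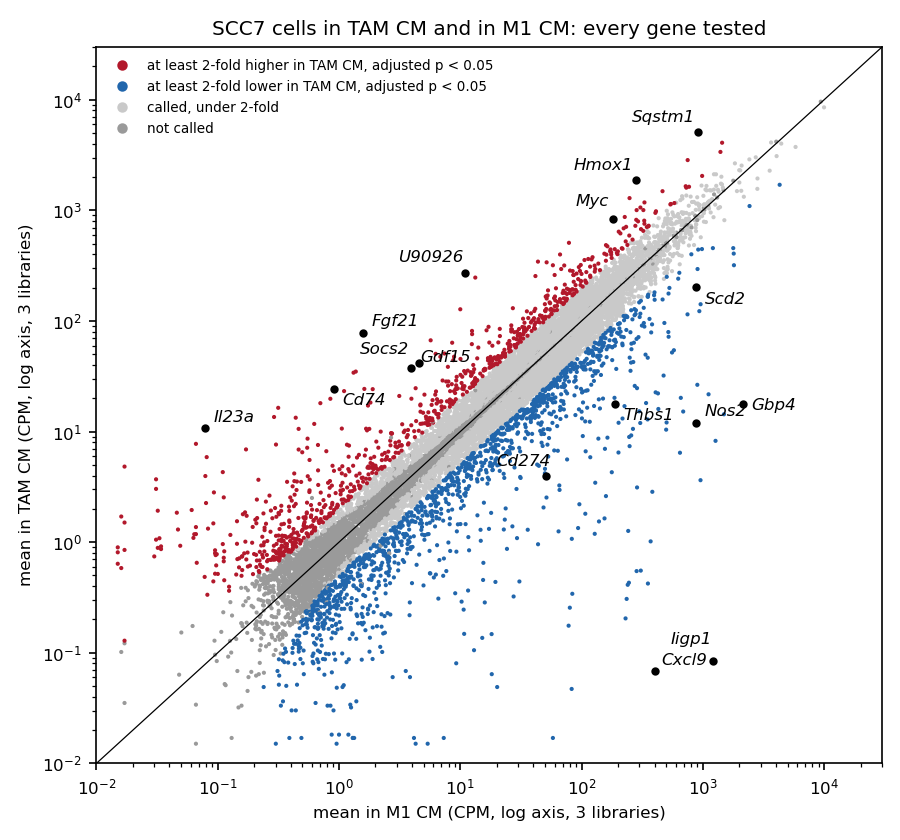
Mean level of each tested gene in M1 CM (horizontal) and TAM CM (vertical), in CPM on log axes, 1 point a gene, with 35 genes at 0 in either group not drawn. The blue points (1353 genes at least 2-fold lower in TAM CM) reach farther from the diagonal than the red ones (831 genes at least 2-fold higher), with Iigp1 and Cxcl9 at the far lower right and Il23a, Fgf21 and U90926 at the upper left.

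Promoter letters are shown first for genes at the 2 ends of the comparison. RefSeq promoter windows (GRCm38.p6, 250 bases before to 50 after the start) were matched by symbol for 9976 of the tested genes. ISRE matches, on either strand, were in the windows of 10.8% of the genes at least 2-fold lower in TAM CM, 3.76% of all and 3.70% of those at least 2-fold higher. The ATF4 composite element TGATGNAA was in 7.78% of the genes at least 2-fold higher, 2.78% of all and 3.23% of those at least 2-fold lower. The GAS letters TTCNNNGAA, which read the same on both strands, were at 9.92%, 8.22% and 7.59% in the lower, all and higher genes. The sterol element TCACNCCAC was at 1.00%, 1.42% and 1.48% in the same order. The letters TGACNNNGC (NRF2) were at 15.2%, 16.9% and 15.7%, ACGTG (hypoxia factors) at 20.4%, 29.3% and 25.2% and the NF-kB element at 69.7%, 71.5% and 66.1%, again for lower, all and higher genes and on either strand. A match is a description of letters, not evidence of binding.

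**Figure D2:**
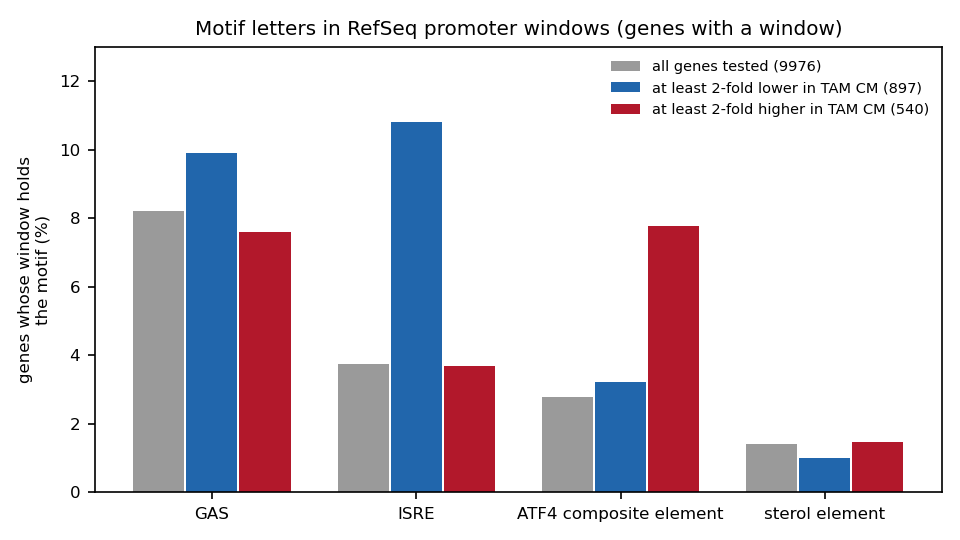
Share of genes whose RefSeq window holds each motif (bars from 0, in percent), for all tested genes (grey, 9976 with a window), genes at least 2-fold lower (blue, 897) and at least 2-fold higher in TAM CM (red, 540). ISRE stands at 10.8% against 3.76% for the lower genes and the ATF4 element at 7.78% against 2.78% for the higher genes, while GAS and the sterol element lie close to all genes.

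Among interferon-inducible GTPases, 11 of 20 tested had a window, and 10 of the 11 held ISRE letters and 6 held GAS letters. In 4 of them the GAS ended 2 bases before ISRE letters on the reverse strand, an order and spacing found in 5 of the 9976 genes, all 5 lower in TAM CM. The spacing was picked from these same windows. The Igtp and Irgm2 stretches are nearly the same, and those of Tgtp1 and Tgtp2 are closely alike, so the 5 genes are not independent cases. The 4 stretches below run 5′ to 3′ on the gene's strand and end before the start site, with GAS and ISRE letters in capitals. They lie at chr11:58199481-58199555 (plus strand) for Igtp, chr11:58214872-58214952 (plus) for Irgm2, chr11:48992284-48992364 (minus) for Tgtp1 and chr11:49064243-49064323 (minus) for Tgtp2, and are shown because the paired elements stand in the same order in all 4:
Igtp: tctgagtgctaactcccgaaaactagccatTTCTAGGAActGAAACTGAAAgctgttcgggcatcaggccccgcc
Irgm2: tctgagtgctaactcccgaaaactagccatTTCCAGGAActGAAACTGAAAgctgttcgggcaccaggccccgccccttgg
Tgtp1: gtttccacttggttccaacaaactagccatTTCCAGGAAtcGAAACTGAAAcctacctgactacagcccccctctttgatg
Tgtp2: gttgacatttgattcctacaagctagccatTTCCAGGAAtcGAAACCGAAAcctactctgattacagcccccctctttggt

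Single ISRE matches stood before the start of Gbp2 (chr3:142620574-142620643, plus strand), Cxcl10 (chr5:92349063-92349132, minus) and B2m (chr2:122147518-122147587, plus), a guanylate-binding protein, a chemokine and an antigen presentation gene. Cxcl10 was the only 1 of 10 chemokine genes with a window to hold ISRE letters, none of the 10 held GAS letters, and 5 of 19 MHC class I genes held ISRE letters. In Cxcl10 and B2m the letters run on the opposite strand:
Gbp2: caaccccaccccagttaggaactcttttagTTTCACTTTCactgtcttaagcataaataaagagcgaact
Cxcl10: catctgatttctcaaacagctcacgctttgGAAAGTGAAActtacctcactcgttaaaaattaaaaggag
B2m: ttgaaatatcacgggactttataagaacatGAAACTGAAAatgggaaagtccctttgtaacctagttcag

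At the other end, 6 of 24 genes of the ATF4 and CHOP list with a window and 3 of 14 amino acid transporters held the ATF4 element. The transporters were Slc1a4, Slc7a11 and Slc7a7, and Slc7a7, with 3 matches, was lower in TAM CM. Shown in capitals are the matches before Fgf21 (chr7:45615592-45615659, minus strand), Atf3 (chr1:191183406-191183473, minus), Chac1 (chr2:119351019-119351086, plus), Nupr1 (chr7:126625543-126625610, minus) and Slc7a11 (chr3:50443623-50443709, minus). The letters run on the opposite strand in all but the first of the 2 matches of Slc7a11:
Fgf21: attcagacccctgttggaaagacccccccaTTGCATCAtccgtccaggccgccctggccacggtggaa
Atf3: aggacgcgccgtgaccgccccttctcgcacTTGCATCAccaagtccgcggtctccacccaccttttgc
Chac1: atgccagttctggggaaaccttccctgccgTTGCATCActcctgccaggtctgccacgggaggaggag
Nupr1: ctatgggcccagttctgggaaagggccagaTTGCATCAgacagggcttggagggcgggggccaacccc
Slc7a11: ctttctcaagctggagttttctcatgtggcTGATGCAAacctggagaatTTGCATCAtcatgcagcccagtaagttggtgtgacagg

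The interferon signalling chain was lower in TAM CM at nearly every step. Of 27 tested genes for interferon receptors, JAK kinases, STAT and IRF factors and SOCS inhibitors, 22 were lower, 3 higher and 2 not called, with a median log2 fold change of -1.01 against -0.02 for all genes. Ifng itself had no counts in either group. The receptor chains differed far less than the factors Irf1, Irf7 and Irf9: Ifngr1 was at 40.3 ± 1.26 CPM (mean ± SD, n = 3) in M1 CM and 26.1 ± 1.22 in TAM CM, and Ifngr2 at 62.8 ± 2.57 and 45.03 ± 1.27. Other members moved less than these chains, with Jak1 at a log2 fold change of -0.17 and Irf3 at -0.01, not called. Irf1, a transcription factor induced by interferon-γ (ENSMUSG00000018899, chromosome 11, 53770014 to 53778374, GRCm38), read 523, 534 and 509 CPM in the M1 CM libraries and 72.4, 74.6 and 69.1 in the TAM CM libraries. The groups lay far apart, with a log2 fold change of -2.86 (SE 0.04, edgeR quasi-likelihood adjusted p = 2.41e-47). In M0 CM it was at 71.9 ± 2.38 CPM, next to its TAM CM mean of 72.01 ± 2.79.

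Several downstream members were lower in the same way as Irf1. Irf7, which drives type I interferon genes, was at 139 ± 11.4 CPM in M1 CM and 1.54 ± 0.436 in TAM CM, Irf9 at 101 ± 4.44 and 13.2 ± 0.896, and Stat2 at 340.3 ± 8.88 and 18.1 ± 1.38. Feedback inhibitors were lower too, Socs1 at 17.8 ± 0.848 against 71.2 ± 8.62 CPM and the ISG15 protease Usp18 52.2-fold, from 64.6 ± 6.21 CPM in M1 CM. Socs2, an inhibitor of growth hormone and STAT5 signalling, went the other way: it read 4.5, 4.52 and 4.6 CPM in M1 CM and 44.1, 42.6 and 39.2 in TAM CM. Every TAM CM library was above every M1 CM library (9.23-fold, edgeR quasi-likelihood adjusted p = 4.24e-32), and M0 CM lay between them at 14.7 ± 1.11. Ptpn2, a phosphatase that dampens JAK signalling, was 1.33-fold higher in TAM CM, at 70.3 ± 0.276 CPM.

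Interferon-inducible GTPases, which attack intracellular pathogens at their vacuoles, held the largest differences of all the lists. All 20 tested were lower in TAM CM, all at least 2-fold, with a median of -7.09. Gbp4 (ENSMUSG00000079363, chromosome 5, 105115767 to 105139586) read 2183, 2114 and 2116 CPM in M1 CM and 16.98, 18.3 and 17.9 in TAM CM. The TAM CM values were also below the 49.04 ± 1.8 CPM of M0 CM (edgeR quasi-likelihood adjusted p = 4.73e-31 for TAM CM against M0 CM). Iigp1 read 1224, 1176 and 1217 CPM in M1 CM and had 5 counts over the 3 TAM CM libraries, a log2 fold change of -13.72 that rests on those few counts. Tgtp1 had 7076 counts in M1 CM and 0 in TAM CM, at least 2267-fold lower taking 3 counts in the group as the floor. Igtp, whose promoter is printed above with the paired GAS and ISRE, was at 957 ± 34.96 CPM in M1 CM and 3.63 ± 0.613 in TAM CM, and Irgm1, a regulator of the other members, at 658 ± 26.2 and 20.2 ± 0.701. Tgtp1 and Tgtp2 and several Gbp, Ifit, Oas, Serpina3 and H2 genes are near copies that can share reads, so their values taken singly are uncertain.

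Antiviral genes followed. All 39 tested were lower in TAM CM (median -4.33), from -9.16 for Ifit3, which binds viral RNA, up to small differences. Zbp1, a sensor of left-handed nucleic acid that can start necroptosis, read 378, 373 and 363 CPM in M1 CM and 0.71, 1.22 and 1.12 in TAM CM. Bst2, which tethers budding virions, was at 557 ± 26.2 and 51.9 ± 1.26 CPM. Isg15, a ubiquitin-like protein joined to other proteins, was at 299 ± 37.03 and 15.3 ± 0.714, its conjugating enzyme gene Ube2l6 at 257 ± 10.6 and 9.23 ± 0.291. Samhd1, which breaks down the nucleotides that viruses need, was at 519 ± 9.57 and 79.4 ± 3.47. For each of these 5 genes every TAM CM library was below every M1 CM library. M0 CM means were 43.4 CPM for Bst2 and 4.93 for Isg15, below their TAM CM means, and 1.31 for Ifit3, above its 0.553 in TAM CM.

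Antigen presentation on MHC class I was lower in TAM CM, while B2m, H2-K1 and Nlrc5 stayed above their M0 CM levels. Of 22 tested genes, 19 were lower and 2 higher (median -1.94). The higher ones were the general chaperones Calr and Canx, which are also on the endoplasmic reticulum list. B2m, the class I light chain (ENSMUSG00000060802, chromosome 2, 122147686 to 122153083), read 2431, 2485 and 2364 CPM in M1 CM and 1100.1, 1099 and 1084 in TAM CM. The groups did not overlap, a 2.22-fold difference (edgeR quasi-likelihood adjusted p = 2.7e-36), and the TAM CM libraries were in turn above the 615 ± 7.05 CPM of M0 CM (adjusted p = 2.34e-30 by the same edgeR test). The heavy chain gene H2-K1 was placed likewise, at 234 ± 8.21, 804 ± 33.5 and 401 ± 13.8 CPM in M0 CM, M1 CM and TAM CM. Nlrc5, the transactivator of class I genes, was at 35.3 ± 1.6, 295 ± 12.6 and 71.4 ± 2.81 CPM in the same order.

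Several genes of the peptide supply differed more than B2m and H2-K1, as did the class I genes H2-T22 and H2-T23. H2-T22 was at 427 CPM in M1 CM and 22.1 in TAM CM, and H2-T23 at 163 and 8.81. In TAM CM both lay below their M0 CM means of 60.4 and 15.9 CPM, unlike B2m and H2-K1. Tap1, a chain of the peptide transporter of the endoplasmic reticulum, read 409.6, 404 and 410.4 CPM in M1 CM and 22.2, 24.1 and 21.5 in TAM CM, against 31.5 ± 2.71 in M0 CM. TAM CM was thus the lowest of the 3 media for Tap1 (edgeR quasi-likelihood adjusted p against M0 CM = 9.11e-09). The immunoproteasome subunit genes Psmb8, Psmb9 and Psmb10 were at 42.6, 10.6 and 25.9 CPM in TAM CM and 267, 265 and 275 in M1 CM. The 30 constitutive proteasome genes moved far less, 18 lower and 8 higher with a median of -0.17, from Psma4 at -0.70 to Psmd8 at 0.75. Cd74, the MHC class II invariant chain, rose without its partners: it read 0.81, 1.11 and 0.819 CPM in M1 CM and 22.3, 25.3 and 25.6 in TAM CM. H2-Aa had 0 counts, H2-Ab1 0 and their activator Ciita 0 in the TAM CM group.

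Chemokines that draw T cells stood far higher in M1 CM than in TAM CM. Of 16 tested chemokine genes 14 were lower in TAM CM, 1 higher and 1 not called (median -2.26). Cxcl9 read 418, 405 and 378 CPM in the M1 CM libraries and had 4 counts over the 3 TAM CM libraries. Cxcl10 (ENSMUSG00000034855, chromosome 5, 92346638 to 92348889) read 947, 925 and 829.6 CPM in M1 CM and 23.03, 29.8 and 26.6 in TAM CM, 33.8-fold lower. In M0 CM Cxcl9 averaged 0.061 CPM and Cxcl10 23.1. Both are ligands of CXCR3, as is Cxcl11, at 242 ± 13.8 and 1.26 ± 0.145 CPM. The monocyte attractant Ccl2 read 1649, 2143 and 1621 CPM in M1 CM and 323, 342 and 293 in TAM CM, and its TAM CM libraries were above the 233 ± 10.7 of M0 CM (edgeR quasi-likelihood adjusted p = 0.00659). Cxcl1, which draws neutrophils, differed less, at 506 ± 45.6 CPM in M1 CM, 270.4 ± 11.4 in TAM CM and 71.7 ± 1.42 in M0 CM. Cxcl12, a ligand of CXCR4, was below M0 CM in both media, at 99.2 ± 3.08 and 76.5 ± 7.33 CPM against 411 ± 24.9 in M0 CM. Ccl25 was the member that was higher in TAM CM, at 15.3 ± 1.79 against 11.4 ± 1.75 CPM.

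Cytokine genes were split, 7 higher and 11 lower of 21. Their median of -0.14 was -0.01 over the 20 tested when only the 6 libraries of the comparison were fitted. Il23a, the p19 subunit of interleukin-23, showed the largest rise among all genes named by the size rule: it read 0.09, 0.0962 and 0.0512 CPM in M1 CM (5 counts in all) and 9.72, 13.1 and 9.63 in TAM CM (656 counts). M0 CM was also near 0, with 3 counts. Csf1, the macrophage growth factor, was present in all 3 media, at 1319 ± 8.23, 1422 ± 27.1 and 2015 ± 86.01 CPM in M0 CM, M1 CM and TAM CM. Il15, which sustains T and NK cells, was at 65.8 ± 2.55 CPM in M1 CM and 2.97 ± 0.172 in TAM CM, and Csf3 at 7.67 ± 0.449 and 0.548 ± 0.0602. Il6 had 79 counts in M1 CM and 2 in TAM CM, a ratio of 37.96 (exact binomial 95% interval 10.2 to 319, counting error only).

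Genes that restrain T cells went both ways. Of 20 tested checkpoint ligands and immunosuppressive enzymes, 11 were lower and 6 higher in TAM CM. The median of -0.31 was -0.75 over the 18 of them with at least 1 CPM in 3 libraries. Cd274, which encodes PD-L1 (ENSMUSG00000016496, chromosome 19, 29367455 to 29388095), read 51.7, 53.8 and 48.7 CPM in M1 CM and 3.82, 4.2 and 3.87 in TAM CM. That is a 12.9-fold difference (edgeR quasi-likelihood adjusted p = 4.11e-33), with TAM CM in turn above the 0.504 ± 0.265 CPM of M0 CM (adjusted p = 5.94e-16 in edgeR). Nos2, the inducible nitric oxide synthase, read 826, 909 and 889 CPM in M1 CM and 9.99, 12.9 and 13.2 in TAM CM. Lgals9, a ligand of TIM-3, was at 56.02 ± 2.09, 111 ± 7.68 and 16.4 ± 0.862 CPM in M0 CM, M1 CM and TAM CM. Cd47, which signals against phagocytosis, was at 236 ± 4.74 CPM in M1 CM and 110.4 ± 1.98 in TAM CM. On the other side, Pvr, a ligand of TIGIT and CD226, was at 81.2 ± 4.06 against 38.8 ± 3.46 CPM. Ptgs2, which makes prostaglandin precursors, read 254, 273 and 337 CPM in M1 CM and 541, 482 and 516 in TAM CM, both groups above the 44.5 ± 5.28 of M0 CM.

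NF-kB, acute phase and complement genes were mostly lower in TAM CM. The NF-kB list had 24 lower, 3 higher and 5 not called of 32 (median -0.79). Sod2, a mitochondrial superoxide dismutase, read 363, 387 and 375 CPM in M1 CM and 78.9, 80.3 and 77.2 in TAM CM, Nfkbia, the inhibitor of NF-kB, was at 279 ± 10.6 and 116 ± 3.64, and Tnfaip3 at 62.9 ± 0.578 and 11.2 ± 0.537. Cd14, the lipopolysaccharide co-receptor, was among the 3 higher, at 40.9 ± 3.8 against 26.1 ± 2.89 CPM. The STAT3, acute phase and complement list had 17 of 19 lower and 1 higher (median -1.21). C3, the central complement component, was at 747 ± 46.4 CPM in M1 CM and 115 ± 5.96 in TAM CM, and C1s1, a protease of the first component, at 247 ± 24.2 and 8.94 ± 0.178. A pair of acute phase genes stood above M0 CM in both media: Lcn2 at 24.5 ± 1.27 and 18.2 ± 2.51 CPM and Saa3 at 19.2 ± 3.14 and 26.6 ± 0.854, against 0.704 ± 0.215 and 0.44 ± 0.233 in M0 CM.

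Death pathway genes shared the direction, 22 lower and 3 higher of 27 (median -0.89). The death receptor Fas read 48.7, 49.8 and 47.2 CPM in M1 CM and 2.07, 2.17 and 1.94 in TAM CM, 23.5-fold lower. Casp1, the inflammasome protease, was at 253 ± 2.99 and 35.4 ± 0.417 CPM and Gsdmd, which forms pores once cut by it, at 363 ± 5.15 and 104 ± 2.09. Cgas and Aim2, sensors of cytosolic DNA, were among the higher ones, at 48.8 ± 3.95 against 34.8 ± 2.91 and 43.9 ± 2.27 against 32.9 ± 0.88 CPM. The BCL2 family was even in number, with 4 higher, 5 lower and 3 not called of 12. There the killer gene Bak1 was at 103 ± 4.12 CPM in M1 CM and 37.7 ± 1.27 in TAM CM, and Bbc3, which encodes PUMA, at 9.72 ± 1.2 and 19.1 ± 2.15.

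**Figure D3:**
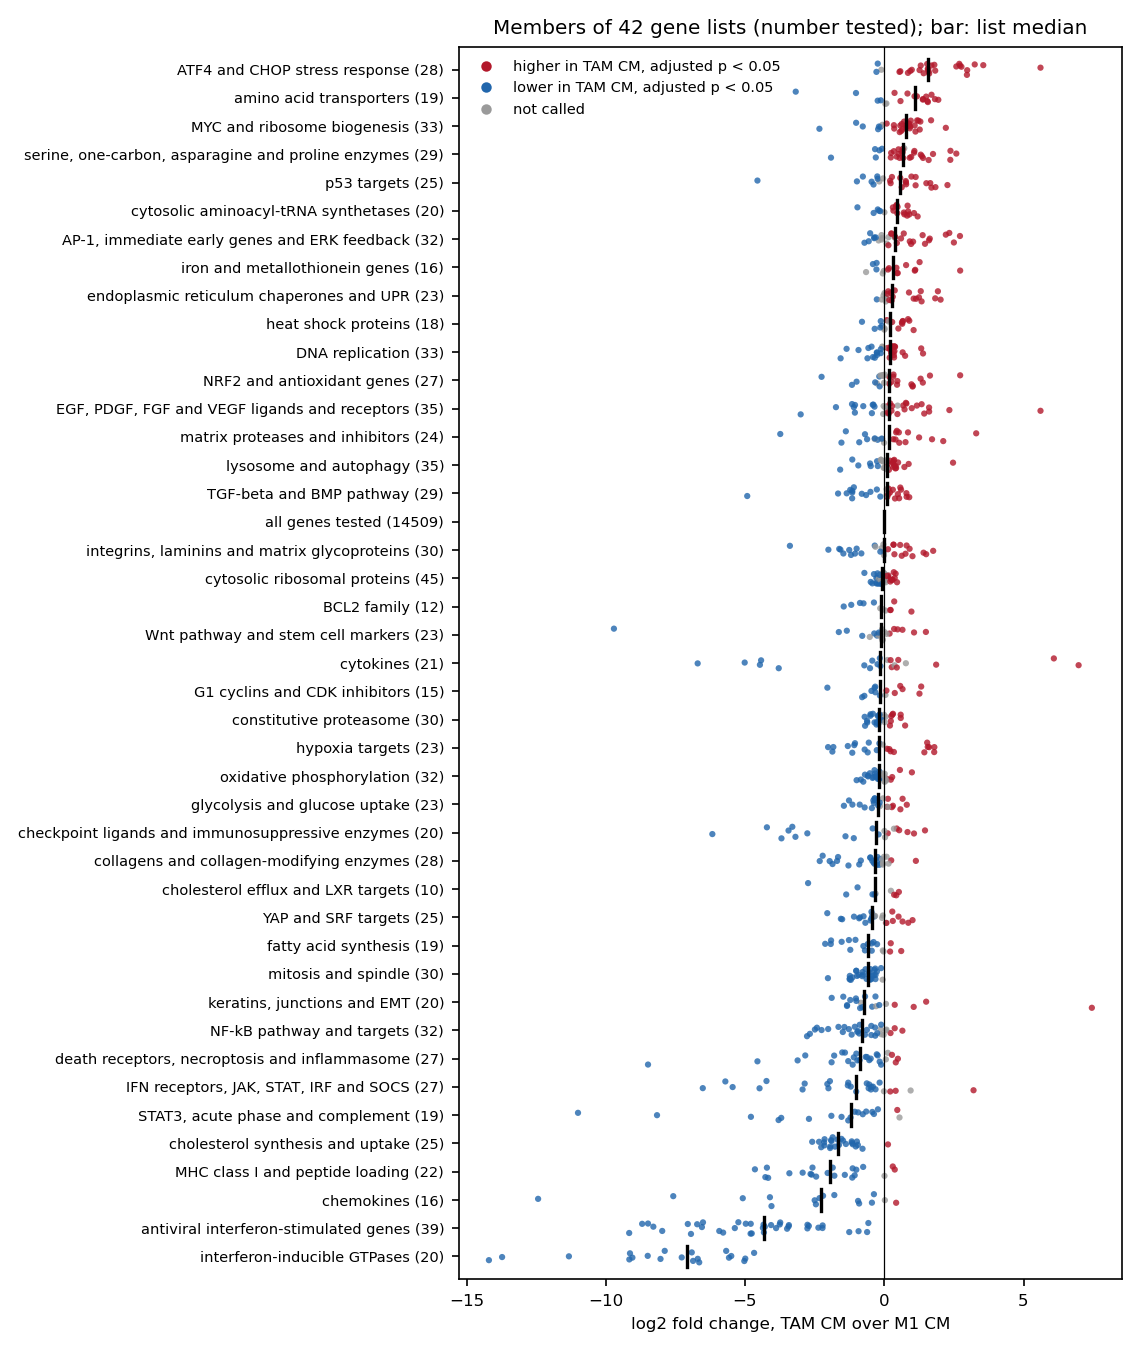
Log2 fold change, TAM CM over M1 CM, of each tested member of 42 lists (1 point a gene, red higher, blue lower, grey not called), ordered by the list median (black bar), with the median of all genes tested as a row of its own. Interferon GTPases (median -7.09) and antiviral genes (-4.33) lie at the bottom and the ATF4 and CHOP list (1.58) at the top.

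Genes of the ATF4 and CHOP stress response were the list shifted most to TAM CM. Of 28 tested, 25 were higher, 2 lower and 1 not called, with a median of 1.58. The lower ones were the sensor kinases Eif2ak3 and Eif2ak4, at -0.28 and -0.23. Atf4 itself was at 405 ± 14.2, 899 ± 66.97 and 1313 ± 19.97 CPM in M0 CM, M1 CM and TAM CM. Fgf21, a secreted stress hormone (ENSMUSG00000030827, chromosome 7, 45613886 to 45615490), read 1.75, 1.73 and 1.28 CPM in M1 CM and 79.9, 78.5 and 76.6 in TAM CM. It was 48.9-fold higher, with no overlap (edgeR quasi-likelihood adjusted p = 1.81e-40), and M0 CM was at 0.172 ± 0.0761. Gdf15, the ligand of GFRAL that curbs appetite, read 3.24, 4.9 and 3.73 and 37.3, 36.6 and 38.9 CPM in the 2 groups.

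Several members were already above M0 CM in M1 CM and higher again in TAM CM. Chac1, which degrades glutathione, was at 6.54 ± 0.253 CPM in M0 CM, and read 68.8, 90.5 and 76.8 in M1 CM and 524, 506 and 497 in TAM CM. Trib3, an inhibitory pseudokinase, was at 16.4 ± 2.02, 121 ± 10.9 and 360.0 ± 6.47 CPM in M0 CM, M1 CM and TAM CM, and Ddit3, which encodes CHOP, at 7.51 ± 0.801, 31.3 ± 5.49 and 75.3 ± 1.65. Both comparisons with M0 CM passed for these 3 genes, with edgeR quasi-likelihood adjusted p of 1.39e-10 and 7.59e-14 for Chac1; they share the M0 CM libraries. Ppp1r15a, the phosphatase subunit that ends the response, was 7.88-fold higher in TAM CM than in M1 CM, at 344 ± 3.48 CPM. Atf3 was at 66.9 ± 0.791 against 5.7 ± 0.594 CPM and Nupr1 at 339 ± 13.3 against 51.5 ± 5.71. Cebpb was at 86.7 ± 3.46 and 80.6 ± 3.71 CPM and did not pass.

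**Figure D4:**
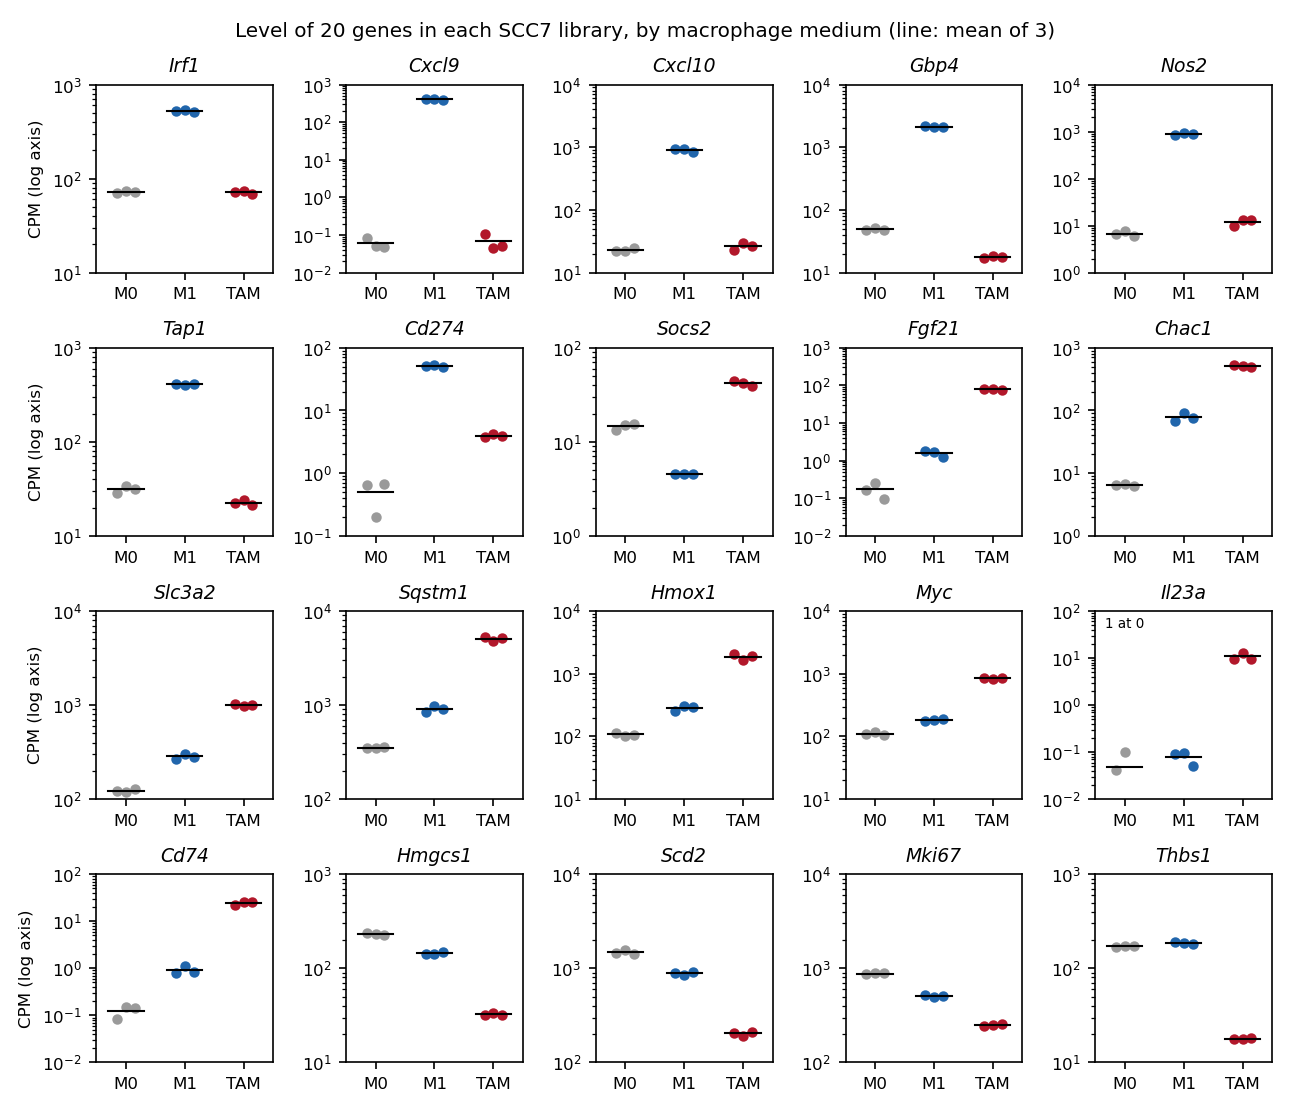
CPM of 20 genes in each of the 3 M0 CM (grey), M1 CM (blue) and TAM CM (red) libraries, on log axes that differ between panels, with a line at each mean and libraries at 0 given in words. Interferon-linked genes such as Irf1 stand high in M1 CM alone (71.9, 522 and 72.01 CPM in M0 CM, M1 CM and TAM CM), Chac1 climbs from M0 CM over M1 CM to TAM CM (6.54, 78.7 and 509), and Hmgcs1 falls in the same order (231, 144 and 32.5).

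Amino acid uptake and synthesis genes were higher in TAM CM. Of 19 tested amino acid transporters 13 were higher and 4 lower (median 1.09). Slc3a2, the heavy chain shared by several transporters, read 268, 304 and 282 CPM in M1 CM and 1027, 986 and 1003 in TAM CM, and its partner Slc7a5 was at 227 ± 19.8 and 872 ± 26.5. The cystine transporter Slc7a11 was at 23.5 ± 3.58, 278 ± 27.3 and 725 ± 28.6 CPM in M0 CM, M1 CM and TAM CM. The arginine and lysine transporter Slc7a1 was 2.96-fold higher in TAM CM than in M1 CM, at 619 ± 21.4 CPM, and the glutamine transporter Slc1a5 2.63-fold, at 226 ± 5.22. Slc7a7, which exports basic amino acids, was on the low side, at 7.71 ± 1.19 in M1 CM and 3.77 ± 0.923 in TAM CM.

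Of 29 enzymes for serine, one-carbon units, asparagine and proline, 23 were higher and 5 lower (median 0.66). Asns, asparagine synthetase, read 251, 284 and 269 CPM in M1 CM and 536, 509 and 525 in TAM CM. Phgdh, the entry enzyme of serine synthesis, was at 678 ± 7.76 and 1278 ± 38.4 CPM, Mthfd2 of the mitochondrial folate cycle at 172 ± 8 and 427 ± 15.9, and Cth, which makes cysteine, at 66.5 ± 8.1 and 399 ± 8. Ass1, argininosuccinate synthase, was lower in TAM CM, at 18.8 ± 1.99 against 70.6 ± 2.54 CPM, with 23.5 ± 2.08 in M0 CM. Cytosolic aminoacyl-tRNA synthetases had 14 higher and 5 lower of 20 (median 0.45), from Rars at 1.20 to Qars at -0.96. Wars, for tryptophan, was above M0 CM in both media, at 259 ± 17.5 CPM in M1 CM and 227 ± 4.1 in TAM CM against 62.1 ± 1.88 in M0 CM.

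Chaperone genes of the endoplasmic reticulum were higher for a subset of members. The list had 16 higher, 1 lower and 6 not called of 23 (median 0.26), and 8 were at least 2-fold higher. Hspa5, the chaperone BiP (ENSMUSG00000026864, chromosome 2, 34771970 to 34777547), read 733, 768 and 747 CPM in M1 CM and 2886, 2781 and 2879 in TAM CM. The M1 CM group was below the 823 ± 19.1 CPM of M0 CM (edgeR quasi-likelihood adjusted p = 0.00026) and the TAM CM group above it. Ern1, which encodes the sensor IRE1, was 2.21-fold higher in TAM CM, and Xbp1, the factor it splices, 2.37-fold. Other chaperones differed little: Calr was at 731 ± 17.6 and 949 ± 14.1 CPM, and Creld2 at 88.3 ± 3.1 and 91.8 ± 4.7 did not pass. Among heat shock genes (10 higher, 5 lower of 18, median 0.22), the mitochondrial chaperone Hspa9 was at 987 ± 53.2 and 2049 ± 44.1 CPM and the inducible cytosolic Hspa1b at 201 ± 31.05 and 224 ± 22.5, the latter not called.

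Single oxidant and autophagy genes were far higher in TAM CM. Sqstm1, the autophagy receptor p62 (ENSMUSG00000015837, chromosome 11, 50199366 to 50210827), read 854, 972 and 917 CPM in M1 CM and 5330.4, 4759.9 and 5105 in TAM CM. Hmox1, heme oxygenase 1, read 254, 304 and 290.3 CPM in M1 CM and 2038, 1642 and 1929 in TAM CM. Both genes had no overlap between the groups and lay lowest in M0 CM, at 352 ± 5.31 and 108 ± 5.91. The rest of their lists did not move as a block. The NRF2 list had 14 higher, 6 lower and 7 not called of 27 (median 0.18), and the lysosome and autophagy list 18, 7 and 10 of 35 (median 0.10). Gclc, which starts glutathione synthesis, was at 128 ± 3.49 and 317 ± 23.5 CPM and Txnrd1, thioredoxin reductase, at 504 ± 15.2 and 992 ± 26.5, while Nqo1, often used to read NRF2 activity, was at 389 ± 15.01 and 324 ± 35.9, which did not pass (edgeR quasi-likelihood adjusted p = 0.0508) but passed as lower in 5 of 15 alternative fits. Keap1, the repressor of NRF2, was lower in TAM CM, at 36.2 ± 2.12 against 80.8 ± 1.84. Of the iron and metallothionein genes 10 of 16 were higher and 3 lower, with the transferrin receptor Tfrc at 426 ± 1.97 against 199 ± 11.3 CPM.

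Myc and genes for making ribosomes were higher in TAM CM. Myc (ENSMUSG00000022346, chromosome 15, 61985391 to 61990374) read 174, 183 and 189 CPM in M1 CM and 855, 815 and 859 in TAM CM, 4.63-fold higher (edgeR quasi-likelihood adjusted p = 5.6e-41), with M0 CM at 111 ± 6.2. All TAM CM libraries were above all M1 CM libraries. On the MYC and ribosome biogenesis list 26 of 33 were higher and 6 lower (median 0.77). Ncl, nucleolin, was at 1396 ± 48.1 and 3377 ± 26.1 CPM, Nop56, a core protein of small nucleolar ribonucleoproteins, at 329 ± 1.91 and 808 ± 29.8, and Odc1, a MYC target that makes polyamines, at 465 ± 47.1 and 1491 ± 85.5. Members that oppose MYC were on the low side, with Mxd3 at 3.38 ± 0.896 against 16.7 ± 1.14 CPM and Mxd4 at 9.93 ± 0.491 against 16.9 ± 1.86. Ribosomal proteins themselves did not share this direction, 12 higher, 17 lower and 16 not called of 45 (median -0.08, or -0.02 without M1 CM library 2), a share called near the background.

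Cholesterol synthesis was the metabolic list most uniformly lower in TAM CM. Of 25 tested genes 24 were lower, 21 of them at least 2-fold (median -1.68). Hmgcs1, an early enzyme of the pathway (ENSMUSG00000093930, chromosome 13, 119690379 to 119708260), read 143, 141 and 149 CPM in M1 CM and 32.1, 33.4 and 31.98 in TAM CM, 4.44-fold lower (edgeR quasi-likelihood adjusted p = 1.35e-40). Its window was the only one of 18 on the list to hold the sterol element, shown in capitals at chr13:119690184-119690252 (plus strand), while SREBP sites of other forms were not searched:
Hmgcs1: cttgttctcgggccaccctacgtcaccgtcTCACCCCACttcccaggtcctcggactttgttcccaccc

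Idi1, an isomerase of the same pathway, was at 94.1 ± 3.01, 57.5 ± 6.25 and 11.99 ± 0.729 CPM in M0 CM, M1 CM and TAM CM. Srebf2, which encodes SREBP2, was at 626 ± 18.7 CPM in M1 CM and 241 ± 3.91 in TAM CM. Scap, which escorts it, was the exception, at 76.9 ± 1.54 and 84.4 ± 4.67, higher by 0.13 on the log2 scale, a call lost without TAM CM library 3 (edgeR quasi-likelihood adjusted p = 0.0755). Fatty acid genes were lower as well, 14 of 19 with 3 higher (median -0.60). The desaturase gene Scd2 read 888, 846 and 913 CPM in M1 CM and 207, 193 and 209 in TAM CM, and Scd1 was at 354 ± 3.62 and 173 ± 3.9. Cholesterol efflux and LXR targets were mixed, with 3 higher and 5 lower of 10.

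Hypoxia targets moved in both directions. Of 23 tested, 10 were higher and 12 lower, 6 and 7 of them at least 2-fold (median -0.18). Car9, a surface carbonic anhydrase, read 13.2, 13.9 and 18.4 CPM in M1 CM and 3.22, 3.7 and 4.23 in TAM CM, and Adm, adrenomedullin, was at 11.6 ± 1.89 and 4.72 ± 1.16; M0 CM stood highest, at 40.7 ± 4.41 and 28.4 ± 4.96. Bnip3, a mitophagy receptor, was at 53.9 ± 7.21 CPM in M1 CM and 24.2 ± 2.94 in TAM CM. The members that rose include several that are also on the ATF4 list. Vegfa, the vascular growth factor (ENSMUSG00000023951, chromosome 17, 46016993 to 46032369), read 135, 163 and 179 CPM in M1 CM and 487, 482 and 487 in TAM CM. Ddit4, an inhibitor of mTORC1, was at 90.9 ± 7.82 and 268 ± 1.98 CPM and Ero1l, an oxidase of the endoplasmic reticulum, at 306 ± 72.01 and 1062 ± 7.36. Glycolysis genes had 7 higher and 13 lower of 23 (median -0.22), with the muscle-type phosphofructokinase Pfkm at 38.9 ± 0.377 against 106 ± 5.25 CPM and the lactate exporter Slc16a1 at 202 ± 3.88 against 115 ± 4.93. Respiratory chain genes had 5 higher and 20 lower of 32, with a median of -0.18.

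Mitosis genes were lower in TAM CM, and genes of DNA replication went both ways. Of 30 mitosis and spindle genes 29 were lower and none higher (median -0.60). The proliferation marker Mki67 read 516, 490.1 and 506 CPM in M1 CM and 244, 252 and 256 in TAM CM, both below the 877 ± 13.9 of M0 CM. Ccnb2, a mitotic cyclin, was at 98.9 ± 3 and 24.3 ± 2.32 CPM and the mitotic kinase Plk1 at 86.4 ± 6.16 and 36.7 ± 1.57. The DNA replication list had 18 higher and 13 lower of 33 (median 0.19): Ccne2, a cyclin of S phase entry, was at 74.7 ± 8.09 against 29.8 ± 1.76 CPM and Pcna, the polymerase clamp, at 345 ± 6.67 against 270.1 ± 18.3, while thymidine kinase Tk1 was at 48.4 ± 2.89 against 144 ± 10.1. Among G1 regulators 6 were higher and 8 lower of 15, with Ccnd2 at 330.3 ± 8.61 against 138 ± 4.98 CPM and the inhibitor Cdkn2d at 4.48 ± 0.427 against 18.4 ± 0.732. The p53 targets had 16 higher and 7 lower of 25 (median 0.57), with Gadd45a, a brake on the cell cycle, at 131 ± 8.06 against 27.1 ± 7.19 CPM, Plk2 at 1179.7 ± 25.3 against 330.0 ± 22.5 and Cdkn1a, which encodes p21, at 224 ± 3.83 against 150.4 ± 17.4. The largest difference on that list was on the low side, Fas at a log2 fold change of -4.55.

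Matrix genes fell apart by family. Of 28 collagens and collagen enzymes 20 were lower and 2 higher in TAM CM (median -0.33). Col6a1 was at 118 ± 8.73 CPM in M1 CM and 36.5 ± 0.448 in TAM CM, and Col1a1 at 204 ± 13.3 and 203 ± 10.5 did not pass, both media lying under the 483 ± 18.6 CPM of M0 CM. Serpinh1, the collagen chaperone HSP47, was on the high side at 1604 ± 50.6 against 730.3 ± 20.1 CPM. Thbs1, thrombospondin 1 (ENSMUSG00000040152, chromosome 2, 118111876 to 118127133), read 191, 186 and 183 CPM in M1 CM and 17.8, 17.7 and 18.03 in TAM CM. It was 10.5-fold lower in TAM CM, and M0 CM was at 172 ± 1.51. Fibronectin went the other way: Fn1 read 1444, 1479 and 1401 CPM in M1 CM and 4012, 4060.1 and 4196 in TAM CM, on either side of the 2576 ± 102 of M0 CM. Integrins, laminins and matrix glycoproteins had 13 higher and 12 lower of 30, with a median of -0.02 that had no stable sign. It was 0.0088 without TAM CM library 1, 0.0036 without TAM CM library 2, 0.03 without M1 CM library 1, -0.07 without TAM CM library 3 and -0.10 without M1 CM library 2. Matrix proteases and inhibitors had 12 higher and 9 lower of 24, with Mmp19 at 17.2 ± 1.13 against 1.73 ± 0.182 CPM, Adamts1 at 166 ± 9.07 against 50.6 ± 1.46 and Mmp14, a membrane collagenase, at 244 ± 3.75 against 374 ± 12.2.

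Both mesenchymal and epithelial filament genes were lower in TAM CM. Vim, vimentin, read 4341, 4178 and 4377 CPM in M1 CM and 1765, 1605 and 1741 in TAM CM, with M0 CM at 4634 ± 103. Krt8, a simple epithelial keratin, read 130.4, 128 and 128 CPM in M1 CM and 64.5, 61.1 and 65.4 in TAM CM, and M0 CM was above both at 267 ± 8.57. Neither gene overlapped between the groups. The list of keratins, junctions and epithelial-mesenchymal transition had 13 lower and 4 higher of 20 (median -0.74). Of its transcription factors, Prrx1 was at 89.02 ± 3.07 against 329.5 ± 8.36 CPM, Twist1 at 36.7 ± 3.06 against 63.5 ± 3.22, and Snai2 was higher in TAM CM, at 24.9 ± 0.238 against 11.97 ± 0.214. TGF-beta and BMP genes were even in number, 14 higher and 13 lower of 29, but not in size, with 0 at least 2-fold higher and 8 at least 2-fold lower. The BMP target Id2 was at 14.5 ± 0.608 against 33.6 ± 4.1 CPM. YAP and SRF targets had 7 higher and 13 lower of 25 (median -0.43). Cnn2, an actin-binding calponin, was at 62.4 ± 1.82 against 258 ± 5.26 CPM, caveolin gene Cav1 at 108 ± 4.11 against 229.8 ± 8.63, and Ankrd1 at 97.3 ± 7.16 against 48.2 ± 4.96.

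Growth factor and immediate early genes leaned to TAM CM. Of 35 ligands and receptors of the EGF, PDGF, FGF and VEGF families 19 were higher and 11 lower (median 0.16). The EGF receptor ligand Areg was at 3.95 ± 1.35 CPM in M1 CM and 19.8 ± 0.721 in TAM CM, and Nrg1, a ligand of ERBB3, was at 85.5 ± 4.12 and 261 ± 11.5. Ereg, an EGF receptor ligand more abundant than Areg, went the other way, at 247 CPM in M1 CM and 146 in TAM CM. Vegfd, a lymphatic growth factor, was opposite to Vegfa, at 3.89 ± 0.212 against 31.2 ± 1.57 CPM. Erbb2 was at 47.4 ± 1.86 and 50.4 ± 1.96 and was not called. The AP-1, immediate early and ERK feedback list had 18 higher, 6 lower and 8 not called of 32 (median 0.38), with the AP-1 subunit Fosl1 at 166 ± 4.12 against 60.4 ± 3.37 CPM and Etv5, a target of ERK, at 63.97 ± 4.42 against 20.6 ± 0.613. Fosl2, another AP-1 subunit, was lower in TAM CM, at 160 against 228 CPM, and the early gene Ier3, at 378 against 404, was not called. Wnt and stem cell genes were 6 higher, 8 lower and 9 not called of 23. Ly6a, which encodes the stem cell antigen Sca-1 and is also interferon-inducible, was the extreme there, at 353 ± 31.5 CPM in M1 CM and 0.423 ± 0.343 in TAM CM, and Wnt5a was at 41.2 ± 4.22 and 13.3 ± 0.952.

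Ranked by size among called, non-overlapping genes that reached a mean of 5 CPM in either medium, leaving out predicted genes and those with clone names, the 15 largest falls were, from the largest, Tgtp1, Iigp1, Cxcl9, Trim30c, Serpina3f, Ly6a, Apol6, Ifit3, Tgtp2, Gbp8, Gbp5, Oas2, Gbp6, Zbp1 and Ly6c1. Tgtp1, Tgtp2, Iigp1, Gbp5, Gbp6 and Gbp8 are on the GTPase list and Ifit3, Oas2 and Zbp1 on the antiviral list. Left out by name were larger falls than some of these, such as F830016B08Rik of the GTPase list (log2 fold change -11.32) and Gm12250 (-10.13). Trim30c and Serpina3f had no counts in TAM CM and were at least 253-fold and 246-fold lower (against the same floor), and Serpina3f had none in M0 CM either. Their ranks, and that of Tgtp1, rest on the fold of the fit, since a gene at 0 counts has no measured ratio. Their places in the order are therefore uncertain. The 15 largest rises were Il23a, Mamdc2, Cmah, Als2cl, Fgf21, Parvg, Sspo, Cd74, P2rx3, Avil, Atp2a3, U90926, Taf7l, Csn3 and Pla2g2e, which come from no single list. U90926, whose accession-like name passed the name filter, read 9.76, 11.5 and 11.3 CPM in M1 CM and 274, 285 and 260.5 in TAM CM. P2rx3, an ATP-gated ion channel, was at 1.32 ± 0.192 and 34.1 ± 2.09 CPM, and Avil, the actin-binding advillin, at 1.38 ± 0.418 and 34.9 ± 3.57. In each of the 3, all TAM CM libraries were above all M1 CM libraries, and M0 CM was lowest, at 0.152 ± 0.0889, 0.131 ± 0.125 and 0.233 ± 0.127. Csn3, the milk protein kappa-casein, was at 19.8 ± 1.34 CPM in TAM CM against 0.849 ± 0.463, Cmah, which makes the sialic acid Neu5Gc, at 5.88 ± 0.563 against 0.0812 ± 0.0771, and Atp2a3, a calcium pump of the endoplasmic reticulum, at 18.1 ± 1.39 against 0.702 ± 0.186.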

How the data were processed

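The deposited table held raw read counts per Ensembl gene for 12 libraries titled as SCC7 cells, 1 of which (in M2 CM) has a melanoma cell type label (55487 genes, 55227 with a symbol in GENCODE M21, GRCm38). Per the submitters' processing notes reads were aligned with HISAT2 2.0 to mm10. The sources used here do not name the tool, annotation or strand setting of the counting, so overlapping and antisense genes cannot be told apart. Genes were kept with filterByExpr (14509 genes; 0.0815% of counts removed), scaled by TMM and fitted in edgeR 4.0.16 (R 4.3.3, limma 3.58.1) with a quasi-likelihood model of the 4 groups over all 12 libraries. Calls used an adjusted p under 0.05 (Benjamini-Hochberg over all genes tested). The biological coefficient of variation was 3.65%. CPM values are on TMM-scaled library sizes, and the fold and log2 values are those of the fit. Totals were 19721662 to 22469320 counts in M1 CM and 18996937 to 22585876 in TAM CM. Intervals and the floor of 3 counts cover counting error only. Replicate libraries of a medium differed beyond counting noise (chi-square over degrees of freedom 2.01 to 5.02). The fits were also run on simulated counts in which few genes were changed, so that run does not speak of data in which most genes differ. Alternatives covered DESeq2 1.42.0, 2 other scalings, 2 other filters, fewer libraries, a replicate block, a 1.5-fold test and each library left out.

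Members, lists and tests were chosen with earlier results of these data known. Named genes were the 15 largest called changes each way without overlap and with at least 5 CPM in the higher group, leaving out predicted genes (Gm and Rik names) and clone names. The name filter did not catch every such form, and U90926 was kept. Beside these stood the members of each list with the smallest p, called members of the opposite direction and well-measured members not called, the top markers of each cell type list, and a fixed panel. The following were chosen after their values were seen: Adm, Atf4, Bnip3, Car9, Cdkn1a, Chac1, Ciita, Cth, Cxcl1, Cxcl12, Ereg, Ero1l, Gadd45a, Gbp2, Gclc, H2-Aa, H2-Ab1, Idi1, Ifngr2, Igtp, Isg15, Krt14, Krt5, Lcn2, Nupr1, Odc1, Pcna, Ppp1r15a, Psmb8, Psmb9, Ptgs2, Slc7a11, Slc7a5, Usp18 and Wars, F830016B08Rik, Gm12250 and the marker genes named as having no counts. Promoter sequences are from RefSeq tables (GRCm38.p6), and entries not in the tables were not searched. A few genes of the lists are counted in them but are not reported here.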

Additional observations from a re-analysis of the deposited data

How the results depend on the processing

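The count of genes higher in TAM CM was 4755 and lay between 4480 (library sizes alone) and 4853 (DESeq2 size factors) under the other scalings, filters, DESeq2 and subsets of libraries, and between 4554 and 4638 with 1 library left out. The count lower was 4997, between 4734 and 5262 in the first set and between 4792 and 4901 in the second. A test against a 1.5-fold difference left 1266 higher and 1716 lower, since it asks for a larger difference. No gene called with the reported settings was called in the opposite direction by an alternative. For 190 named genes under 15 alternatives, 2818 of 2850 values kept direction and call. Of the others, 25 lost a call, all under the 1.5-fold test except Scap without TAM CM library 3 (edgeR quasi-likelihood adjusted p = 0.0755). Nqo1 gained a call in 5, and the log2 fold change of Col1a1, not called, ran from -0.0487 to 0.0437 over the fits with 1 library left out, above 0 without TAM CM library 1 or M1 CM library 1. The cause of these was not tested. Of 630 list medians, 575 moved by less than 1 SD between the libraries of a medium. The 575 include the 42 medians of the 1.5-fold test, which repeat those of the main fit and could not move. Printed medians that changed by over 1.5 times have such values beside their lists.

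Correlations of deviations between M1 CM and TAM CM libraries were weak. They were 0.02 to 0.05 for libraries with the same number and -0.05 to 0.002 for different numbers, so the same-number pairs stood higher. The labels do not say that the numbers mark pairs, and the main fit did not use them as such. With the replicate block 4775 genes were higher and 5010 lower, and of the named genes only Nqo1 changed its call (log2 fold change -0.27, edgeR quasi-likelihood adjusted p = 3.61e-07).

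Genes near 0 counts in 1 medium have folds limited by counting, and the values describe 3 libraries a medium whose independence is not stated.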

Other observations

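Some of the 15 largest changes each way were genes on none of the pathway lists. Apol6, of the apolipoprotein L family, read 241, 247 and 218 CPM in the M1 CM libraries and 0.491, 0.226 and 0.204 in the TAM CM libraries. Ly6c1, a surface protein of the Ly6 family, had 458 counts in M1 CM and 1 in TAM CM, a ratio of 440.1 (exact binomial 95% interval 78.6 to 17422, counting error only). On the high side in TAM CM stood Parvg, an adaptor of integrin signalling, at 6.9 ± 0.996 CPM against 0.171 ± 0.111, and Pla2g2e, a secreted phospholipase, at 10.6 ± 1.06 against 0.465 ± 0.116. Mamdc2 was at 7.75 ± 1.71 CPM in TAM CM against 0.0662 ± 0.0574 in M1 CM, Als2cl at 16.4 ± 1.37 against 0.315 ± 0.117 and Taf7l at 7.63 ± 0.902 against 0.302 ± 0.0599.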
